A study of Mus musculus with 61 samples.

Results

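RNA of single zygotes from *Zfp708* knockout mothers was compared with that of single wild-type zygotes. The libraries were chosen by their labels alone, and they were 14 of the 61 libraries of the series, with 7 wild-type (WT) zygotes and 7 zygotes labelled as maternal null for ZFP708 (KO). In the scheme of the study such embryos come from knockout mothers and wild-type fathers, so that the egg brings no intact *Zfp708* copy while the sperm does. The mutant allele was made by CRISPR in mice and carries a small frameshift deletion in the region that encodes the KRAB domain. The protein is thus cut short before its DNA-binding part. The study took its embryos from natural matings and dated them by embryonic day, with mating assumed at midnight. The sources used here do not give the number of mothers or litters or the exact hour at which each zygote was collected. None of these can be told apart from the KO, and p-values measure the spread between these single zygotes. Of the 18396 genes in the deposited table, 11168 had a value of at least 1 in at least 7 of the 14 libraries and were tested. Values are normalised read counts, that is, read counts divided by a size factor for each library.

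ZFP708 is a KRAB zinc-finger protein, a class of DNA-binding repressors that typically recruit TRIM28 and, through it, histone H3K9 and DNA methylation. It binds RMER19B elements, which are retrotransposon-derived repeats. The zygote transcribes little, and most of its RNA was made by the growing oocyte. Maternal RNAs are stored with short tails, lengthened and translated when needed, and then degraded, much of this through signals in the 3′ UTR. In libraries primed on the poly(A) tail, as in the single-cell protocol that the study followed, fewer molecules and shorter tails cannot be told apart.

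The 14 libraries held more reads in KO (3515736 to 4844699, median 4092370) than in WT zygotes (2878723 to 4094693, median 3208873), with p = 0.0175 in an exact permutation test and 0.0699 after adjustment over 8 library measures. The number of genes with a read (12388 to 12893 in WT, 12675 to 13144 in KO, exact permutation p = 0.0676) and the share of reads from mitochondrial genes (0.835% to 1.51% in WT, 1.02% to 1.94% in KO, exact permutation p = 0.30) overlapped between the groups. The oocyte genes *Bmp15* (4206 to 5522 in WT, 4316 to 7328 in KO) and *Nlrp5* (484 to 652 in WT, 499 to 954 in KO) were abundant in all 14 libraries. Of the same set, *Zp3*, *Ooep*, *Dppa3* and *Npm2* also overlapped between the groups, but *Mos*, *Gdf9*, *Zar1* and *H1foo* fell in KO. Their medians in WT and KO were 1259 and 73.1, 5898 and 3567, 1189 and 760, and 8833 and 4592. Of 55 markers of cumulus and granulosa cells, sperm, oviduct epithelium and blood in the table, 10 were at 0 in every zygote and 22 never passed a value of 1. The granulosa markers *Amh*, *Amhr2*, *Fst*, *Inhbb* and *Hsd17b1*, the cumulus marker *Ptx3* and the sperm marker *Prm1* were among those at 0. Other markers on these lists were read in all 14 libraries, among them *Cyp19a1* (49.9 to 66.9 in WT, 42.2 to 80.8 in KO), *Kitl* (14.96 to 25.03 and 10.03 to 25.25) and *Nr5a2* (15.6 to 25.5 and 14.9 to 32.3) of the cumulus list, and *Odf2* (138 to 162 and 112 to 161) and *Akap4* (7.92 to 23.6 and 8.37 to 25.5) of the sperm list, with overlapping groups for each. The summed level of the cumulus list was 99.9 to 121 in WT and 92.6 to 129 in KO, and that of the sperm list 149 to 184 in WT and 150 to 176 in KO. The blood list stood out in KO replicate 1 alone, with a sum of 427 made up mainly of haemoglobin RNAs (*Hbb-b1* at 234, *Hba-a1* at 95.2), against at most 7.83 in the other 13 zygotes. Without that library 949 genes rose and 712 fell.

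*Zfp708* itself, on chromosome 13 (chr13:67170336-67198912, minus strand, NCBIM37), does not check the labels, since the frameshift allele can still be transcribed. Its level was 73.4 to 202 (median 113) in WT zygotes and 146 to 303 (median 196) in KO zygotes, and the groups overlapped. It rose 1.75-fold (log2 0.81 ± 0.18 SE, limma adjusted p = 0.00393). The same contrast did not pass in GV oocytes (79.7 ± 28.0 in 7 WT, 97.7 ± 15.4 in 7 KO, mean ± SD, limma adjusted p = 0.251) or in 2-cell embryos (19.9 ± 8.84 in 7 WT, 138 ± 155 in 8 KO, limma adjusted p = 0.415). The 10 tested numbered *Zfp* genes within 1000000 bases of it gave log2 fold changes of -0.26 to 1.14, and 0 passed (lowest limma adjusted p 0.062, *Zfp874a*), where 14.6% of all genes tested did.

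In all, 1628 of the 11168 genes (14.6%) differed between KO and WT zygotes at a limma adjusted p under 0.05. Of these, 915 rose (8.19%) and 713 fell (6.38%), with a median log2 fold change of 0.81 among those that rose, -0.77 among those that fell and 0.03 over all genes tested. A change of at least 2-fold was found for 253 genes that rose (2.27%) and 194 that fell (1.74%). The values of the 7 KO zygotes lay wholly above those of the 7 WT zygotes for 268 genes (2.4%) and wholly below for 215 (1.93%), together 483 genes (4.32%). Count models on the recovered reads called 840 higher (7.52%) and 736 lower (6.59%) with edgeR, together 14.1%, and 959 higher (9.31%) and 961 lower (9.33%) of 10301 genes with DESeq2, together 18.6%. In a principal component analysis the first component held 26.1% of the variance, with WT zygotes from 0.03 to 0.413 and KO zygotes from -0.491 to -0.078.

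**Figure D1:**
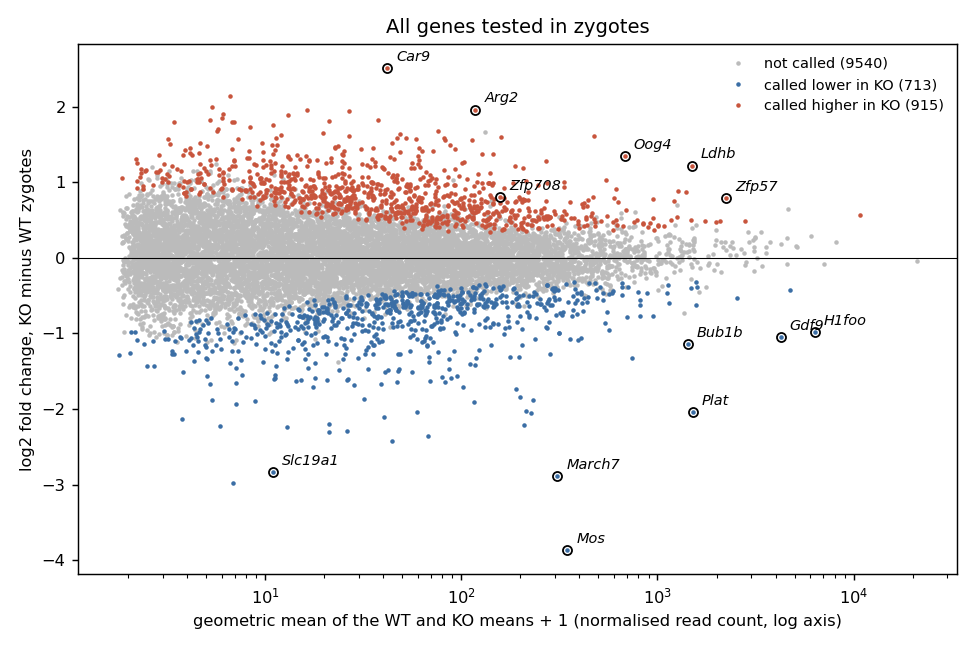
Each point is 1 of the 11168 genes tested, with the geometric mean of the WT and KO means plus 1 on the x axis (normalised read count, log axis) and the log2 fold change of KO minus WT zygotes on the y axis; grey points were not called, blue points fell and red points rose by limma. *Mos* at -3.87 lies farthest below 0 among the circled genes, and *Car9* at 2.51 farthest above.

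*Mos* fell most clearly. It encodes the kinase that drives the MAP kinase arm of cytostatic factor, the activity that holds the ovulated egg in metaphase II. *Mos* (chr4:3797804-3799252, minus strand) was at 1052 to 1564 in WT zygotes (median 1259) and at 56.9 to 187 in KO zygotes (median 73.1). Every KO zygote was far below every WT zygote, and the highest KO value was replicate 5. The fall was 14.6-fold (log2 -3.87 ± 0.18, limma adjusted p = 5.49e-13).

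*March7*, which encodes a RING-type ubiquitin ligase, was at 645 to 980 in WT (median 829) and at 80.4 to 182 in KO (median 105), a 7.38-fold fall (log2 -2.88 ± 0.15, limma adjusted p = 3.9e-12). *Plat*, which encodes tissue-type plasminogen activator and is known in mouse oocytes as an RNA stored until meiosis resumes, was at 2200 to 3828 in WT (median 3229) and at 450 to 1107 in KO (median 853). It fell 4.10-fold (log2 -2.04 ± 0.19). Neither gene overlapped between the groups.

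Among genes of membranes and of the cell surface, *Lbr*, the lamin B receptor of the inner nuclear membrane, was at 376 to 515 in WT (median 451) and at 70.4 to 139 in KO (median 87.7), a 4.65-fold fall. *Slc19a1*, the reduced folate carrier, was at 12.4 to 39.7 in WT (median 29.0) and at 1.17 to 6.01 in KO (median 3.25), a 7.14-fold fall from a low level. For both genes the lowest WT zygote was above the highest KO zygote. The laminin chain genes *Lamc1* (median 46.5 in WT, 8.35 in KO, 4.92-fold) and *Lamb1* (median 1130 in WT, 485 in KO, 2.52-fold) fell, as did *Efna1*, the ligand ephrin-A1 (median 218 in WT, 68.8 in KO, 3.76-fold).

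*Glce*, the epimerase of heparan sulphate synthesis, was at 355 to 526 in WT (median 428) and at 82.3 to 131 in KO (median 105). *Tada2a*, an adaptor of histone acetyltransferase complexes, was at 122 to 196 in WT (median 152) and at 43.3 to 70.2 in KO (median 45.4). *Erp44*, which retains client proteins in the early secretory pathway, was at 99.9 to 184 in WT (median 141) and at 34.8 to 62.8 in KO (median 43.3). These falls were 4.07-fold, 3.02-fold and 2.99-fold. *Tpra1* and *Tex2* also fell. Of the 14 leading genes that fell 13 are described here, and over the 14 the log2 changes ranged in size from 1.33 to 3.87 with limma adjusted p of at most 2.24e-07.

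Of the 14 leading genes that rose, *Arg2*, mitochondrial arginase (chr12:80231764-80257288, plus strand), was at 45.3 to 81.1 in WT zygotes (median 54.4) and at 164 to 343 in KO zygotes (median 213), and it rose 3.90-fold (log2 1.96 ± 0.16, limma adjusted p = 1.3e-08). *Ldhb*, the lactate dehydrogenase B chain, was at 879 to 1145 in WT (median 942) and at 2011 to 2687 in KO (median 2181), a 2.33-fold rise (log2 1.22 ± 0.10). *Car9*, a carbonic anhydrase at the cell surface, was at 9.64 to 21.5 in WT (median 16.3) and at 50.8 to 163 in KO (median 112), a 5.70-fold rise. No KO zygote was as low as any WT zygote for these genes.

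*Akr1b3*, aldose reductase (median 91.2 in WT, 301 in KO, 3.04-fold), *Fth1*, the ferritin heavy chain that stores iron (27.2 and 84.8, 3.12-fold), and *Nubp2*, which takes part in the assembly of cytosolic iron-sulphur proteins (10.0 and 37.3, 3.51-fold), also rose. So did *Copz1*, a subunit of the COPI vesicle coat (91.4 and 237, 2.60-fold), *Zfpl1*, a Golgi membrane protein (6.73 and 31.9, 3.89-fold), *Rnf181*, a ubiquitin ligase (68.7 and 181, 2.94-fold), and the RNA-processing genes *Gemin7* (37.2 and 102, 2.67-fold) and *U2af1l4* (38.2 and 88.6, 2.37-fold). *Rab5if* (38.9 and 141, 3.20-fold), *Ninj2* (47.7 and 129) and *Jpt1* (26.8 and 87.2) complete the 14. *Rab5if* overlaps *Sla2* in the annotation, and 9 of the 14 leading genes that rose and 6 of the 13 described that fell overlap another annotated gene. Since the library kit does not mark the strand, reads of overlapping genes cannot be told apart there. The groups were apart for all 28 leading genes, which were picked for their difference, so that this describes them and adds no support.

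**Figure D2:**
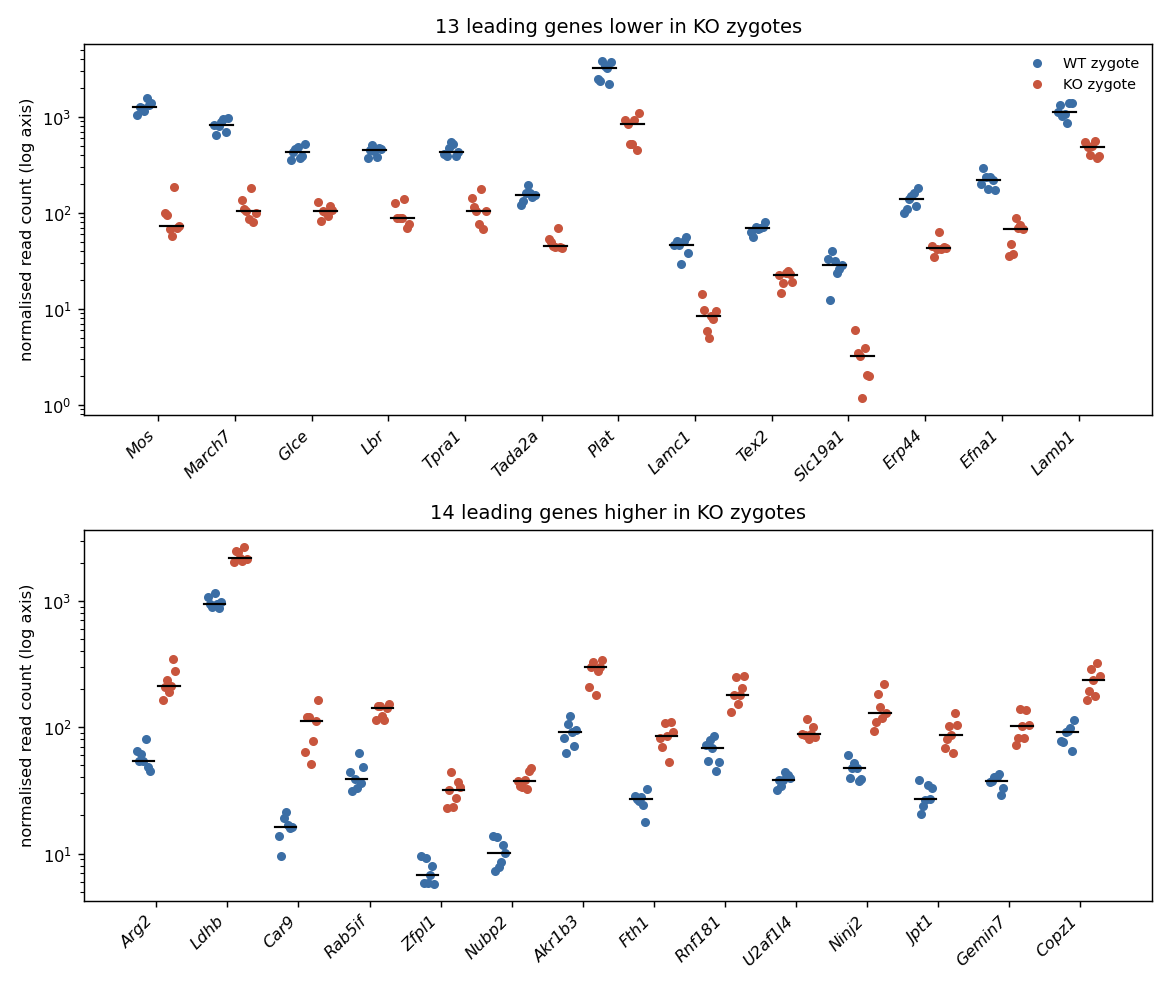
Each point is the normalised read count (log axis) of 1 zygote, blue for the 7 WT and red for the 7 KO zygotes, with a black bar at the median, for 13 leading genes that fell (upper panel) and the 14 that rose (lower panel). Red and blue points are apart for every gene, most widely for *Mos*, with medians of 1259 and 73.1.

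Because storage and decay of maternal RNA are read from the end of the 3′ UTR, the last 100 annotated bases were searched for the cytoplasmic polyadenylation element, here TTTTAT or TTTTAAT on the transcript strand. The search was chosen after the values had been seen and is given without a test. The following 30-base stretches lie at the poly(A) signal of leading genes that fell (*Lamc1*, *Tpra1*, *Mos*) or rose (*Ldhb*, *Akr1b3*, *Gemin7*). They are shown to set RNAs with the element beside RNAs without it. They come from NCBIM37 and are written 5′ to 3′ on the transcript strand, with the element and the poly(A) signal AATAAA in capitals.
Lamc1, chr1:155066075-155066104, minus strand: aaaagaaaacagtaTTTTATttatAATAAA
Tpra1, chr6:88862189-88862218, plus strand: tttcttgatctattTTTTAATAAAAATAAA
Mos, chr4:3797820-3797849, minus strand: taccactagggcatatttttaggaAATAAA
Ldhb, chr6:142438787-142438816, minus strand: gtttgcactaggagctcctgatcaAATAAA
Akr1b3, chr6:34253949-34253978, minus strand: tgggtcagacttctccttgcctcaAATAAA
Gemin7, chr7:20150316-20150345, minus strand: gcttcacacactgagcgtcacagaAATAAA
In *Tpra1* the element overlaps an AATAAA that stands directly before the last AATAAA, and it ends 3 bases before that last signal. *Mos*, the gene with the largest fall, has a run of T but no match to either form in this stretch.

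The element was in the last 100 bases of 194 of 667 genes that fell (29.1%), of 1866 of 8931 that were not called (20.9%) and of 102 of 849 that rose (12.0%). It was found in 20.7% of all genes with such an end. Among genes changed at least 2-fold the shares were 68 of 183 that fell (37.2%) and 19 of 229 that rose (8.30%). Among the leading genes described here they were 6 of 13 that fell and 0 of 14 that rose. *Arg2*, *Car9*, *Jpt1*, *Ninj2*, *Nubp2* and *Rnf181*, which rose, and *Tada2a*, which fell, have no poly(A) signal at their annotated end. Whether those ends are the ones in use was not tested, and the element of *Glce* lies downstream of its signal. Seen from the element, 8.97% of the 2162 genes that have it fell and 4.72% rose, against 5.71% and 9.02% of the 8285 genes without it.

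The ends of these genes also differed in base composition, with a median GC content of 34% in genes that fell, 35% in those not called and 39% in those that rose. Rearranged letters of the element followed the same order. TATTTT was in 26.1% of genes that fell, 18.7% of those not called and 13.3% of those that rose, and the poly(A) signal itself in 83.1%, 75.9% and 71.8%. Within ends of up to 30% GC the element was in 43.2% of genes that fell, 37.3% of those not called and 27.9% of those that rose, and within ends over 40% GC in 11.2%, 5.91% and 4.63%. In the range between, from 31% to 40% GC, the shares were 27.0%, 18.9% and 11.9%, so the order held in all 3 ranges. A Pumilio site (TGTANATA) was in 8.85%, 5.15% and 5.06% of the genes. The median transcript length was 3179 bases in genes that fell, 2984 in those not called and 2199 in those that rose. The part of composition and length in the counts was not tested beyond an adjustment for length, under which 846 genes rose and 881 fell.

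**Figure D3:**
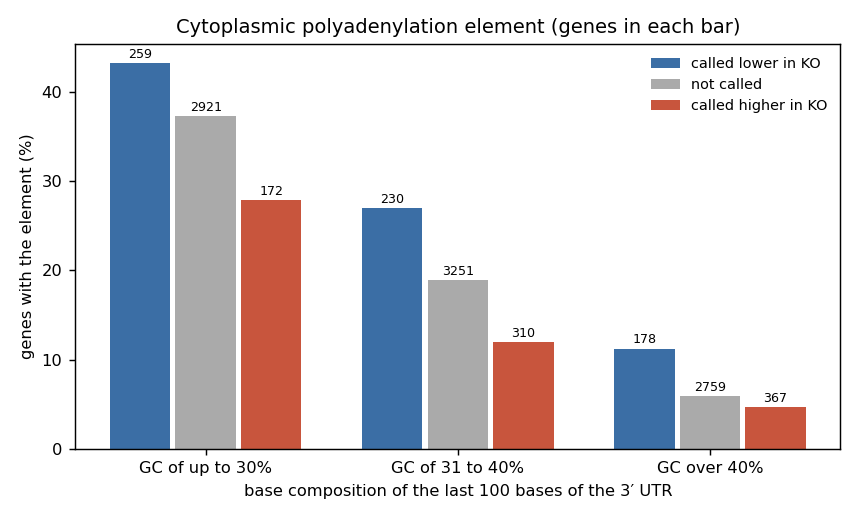
Bars give the percent of genes with TTTTAT or TTTTAAT in the last 100 bases of the 3′ UTR (y axis, from 0) in 3 ranges of GC content of those bases (x axis), for genes that fell (blue), were not called (grey) or rose (red), with the number of genes above each bar. In every range the blue bar is highest and the red bar lowest, from 43.2% and 27.9% at up to 30% GC to 11.2% and 4.63% above 40% GC.

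The stages around the zygote were read from 14 GV oocytes, which are fully grown oocytes before meiosis resumes, and 15 2-cell embryos, none of them among the zygote libraries. For the KO 2-cell embryos numbered 7 and 8 the labels repeat 1 replicate number, which leaves unclear whether these are separate embryos, and both were kept. In GV oocytes the same contrast called 429 of 11775 genes (3.64%), with 170 higher (1.44%) and 259 lower (2.2%). In 2-cell embryos it called 89 of 12578 (0.708%), with 88 higher (0.7%) and 1 lower (0.00795%). Of the 915 genes that rose in KO zygotes 912 were tested in GV oocytes, where 24 were called higher and 6 lower, with a median log2 change of 0.11. Of the 713 that fell 33 were called lower there and 13 higher, with a median of -0.08. The difference between the KO effects of 2 stages, fitted as an interaction in limma, passed for 853 of 12029 genes (7.09%) against GV oocytes, more positive in zygotes for 481 (4%) and more negative for 372 (3.09%). Against 2-cell embryos it passed for 196 of 13427 (1.46%), 31 more positive (0.231%) and 165 more negative (1.23%).

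*Mos* was at 918 ± 143 in WT and 1122 ± 110 in KO GV oocytes (mean ± SD, limma adjusted p = 0.118), and at 5.86 ± 2.93 and 6.13 ± 8.05 in 2-cell embryos. Its KO effect in zygotes differed from that in GV oocytes by -4.17 on the log2 scale, and from that in 2-cell embryos by -3.52, and both differences passed. *March7* was at 613 ± 90.2 in WT and 726 ± 20.004 in KO GV oocytes and at 79.1 ± 14.9 and 74.2 ± 22.1 in 2-cell embryos. In both genes every KO zygote was below the mean of WT GV oocytes and every WT zygote was above it. *Plat* was at 2526 ± 671 in WT and 3579 ± 230 in KO GV oocytes, where it was higher in KO (log2 0.55, limma adjusted p = 0.0373), and it was the only one of the 14 leading genes that fell with a call in GV oocytes. All 14 of these genes were lower in WT 2-cell embryos than in WT GV oocytes.

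*Arg2* was at 651 ± 125 in WT and 727 ± 57.8 in KO GV oocytes and at 85.4 ± 39.8 and 103 ± 137 in 2-cell embryos. *Ldhb* was at 3356 ± 439 and 3353 ± 371 in GV oocytes and at 244 ± 76.0 and 313 ± 159 in 2-cell embryos. *Car9* was at 163 ± 33.9 and 214 ± 11.9 in GV oocytes and at 7.65 ± 2.16 and 20.4 ± 19.1 in 2-cell embryos. For *Arg2* and *Car9* the KO zygotes were nearer the level of GV oocytes than the WT zygotes were. None of the 14 leading genes that rose was called in GV oocytes or 2-cell embryos, and 11 of them were lower in WT 2-cell embryos than in WT GV oocytes. All 28 leading genes passed the interaction with GV oocytes, and 8 that fell and 3 that rose passed that with 2-cell embryos, though they were chosen on the zygotes that enter it.

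**Figure D4:**
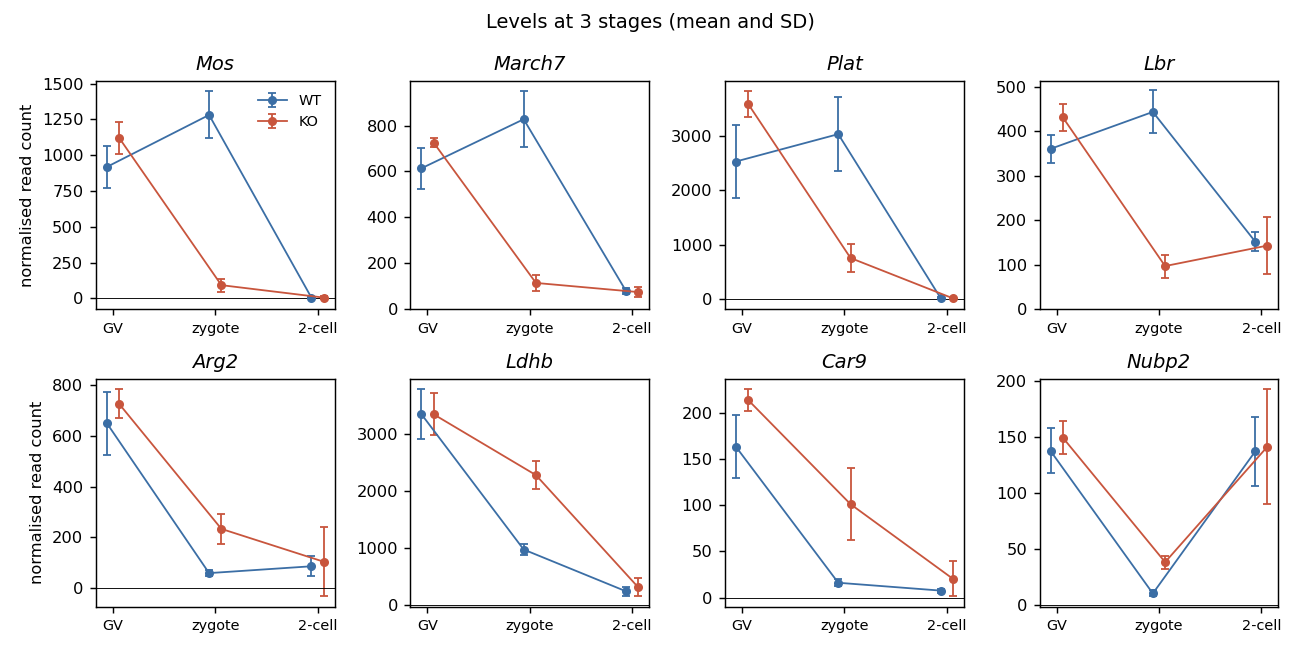
Points are mean normalised read counts with the SD as bars in 7 WT (blue) and 7 KO (red) GV oocytes, 7 and 7 zygotes, and 7 WT and 8 KO 2-cell embryos, for 8 leading genes. The KO effect was called in zygotes for all 8 genes and at another stage for *Plat* alone, with 2526 and 3579 in GV oocytes.

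The genes could be sorted by their course in WT embryos without the zygotes, by a change of at least 2-fold from WT GV oocytes to WT 2-cell embryos. Of 3906 genes lost over that interval 491 rose (12.6%) and 330 fell (8.45%) in KO zygotes. Of 2292 genes gained 90 rose (3.93%) and 104 fell (4.54%), and of the 4970 other genes 334 rose (6.72%) and 279 fell (5.61%). With a 4-fold minimum, 281 of 1915 lost genes rose (14.7%) and 189 fell (9.87%). A larger share of the RNAs that go on to be lost was thus called, in both directions. The classes were not matched for level in zygotes, on which a call also depends, and no test of that share was made.

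Lists of genes by function, 30 in all, held 150 called genes among 729 tested members, beside 1628 of 11168 (14.6%) over all genes. The lists were chosen with earlier results of these data known, so a larger share among their members adds no support. The list of endoplasmic reticulum (ER) chaperones and the unfolded protein response had the most members that fell: 15 of 31 fell and 1 rose, with a median log2 change of -0.43 and 25 members below 0, beside 6.38% lower and a median of 0.03 over all genes. The counts were 15 lower with edgeR and 18 with DESeq2, and 13 to 16 when any single library was left out. In GV oocytes 0 members of the list were called higher and 2 lower, with a median log2 change of -0.13. Over all genes tested there 1.44% were called higher and 2.2% lower. In 2-cell embryos 0 members were called either way, with a median log2 change of -0.34 beside -0.06 over all genes. At that stage 0.7% of all genes tested were called higher and 0.00795% lower. Of 4 protein disulphide isomerase genes on the list, which act on disulphide bonds in the ER, *Pdia6* and *P4hb* fell, while *Pdia3* (log2 -0.04) and *Pdia4* (log2 0.28) did not pass. *Pdia6* was at 284 to 327 in WT (median 297) and at 104 to 162 in KO (median 140, log2 -1.15 ± 0.12, limma adjusted p = 5.18e-07), and *P4hb* was at 415 to 596 in WT (median 508) and at 139 to 333 in KO (median 262). The groups were apart for both that fell. The ER co-chaperones *Dnajc10* (log2 -1.07) and *Dnajb11* (log2 -1.11) fell, and *Hspa5*, the main HSP70 of the ER, was at 230 to 343 in WT (median 267) and at 171 to 245 in KO (median 181), with a smaller fall and overlapping groups (log2 -0.50, limma adjusted p = 0.00576). *Ddit3*, the stress-induced transcription factor CHOP, was the member that rose (lowest, median and highest 9.36, 15.8 and 18.6 in WT and 18.8, 27.5 and 38.3 in KO).

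**Figure D5:**
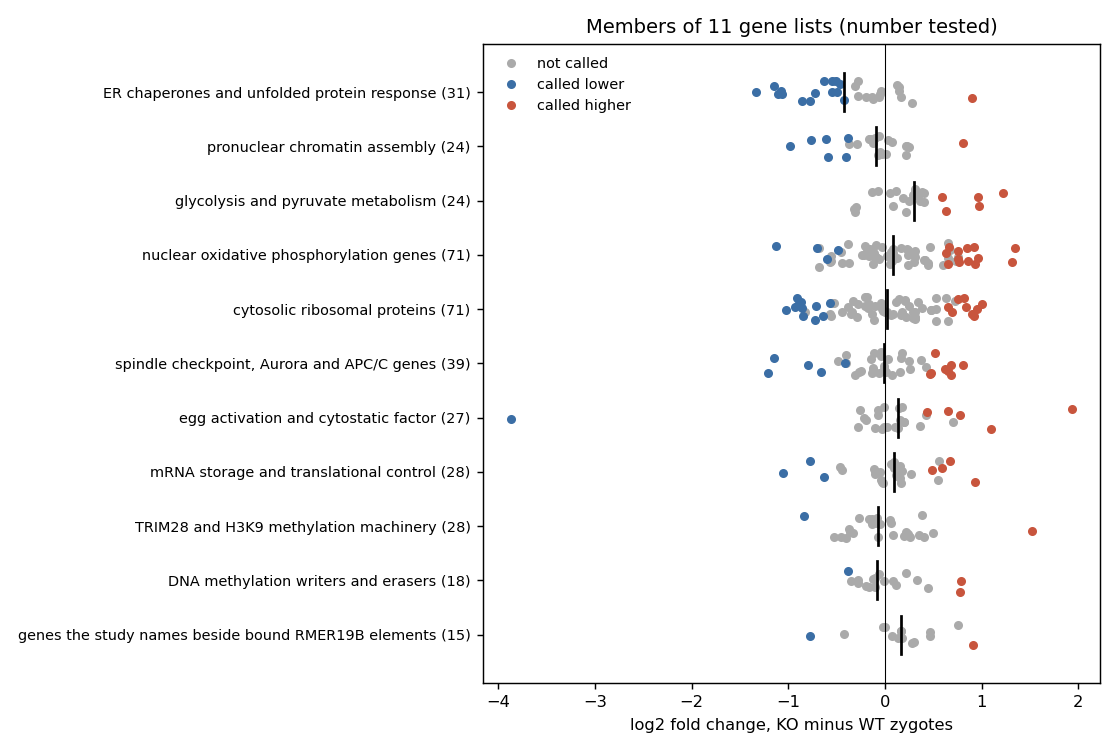
Each point is a tested member of 1 of 11 gene lists, placed by its log2 fold change of KO minus WT zygotes (x axis), blue where it fell, red where it rose and grey where it was not called, with a black bar at the median and the number tested beside the name. The ER list lies to the left of 0, with a median of -0.43, and glycolysis to the right, with 0.30.

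Over all genes tested 8.19% rose and 6.38% fell, and the counts of the following lists are to be read beside these shares. In glycolysis and pyruvate metabolism 5 of 24 rose and 0 fell (median 0.30): *Ldhb*, the glycolytic enzymes *Tpi1* (log2 0.96), *Pfkp* (0.98) and *Pkm* (0.59), and the glucose transporter *Slc2a1* (0.63). Of 71 nuclear oxidative phosphorylation genes 13 rose and 4 fell (median 0.09). *Atp5g1*, a subunit of the ATP synthase ring, was at 5.16 to 14.3 in WT (median 7.10) and at 20.5 to 25.2 in KO (median 21.7), while *Ndufa1* of complex I fell (log2 -1.13). Mitochondrially encoded genes gave 0 rises and 1 fall of 7. Ribosomal protein genes were called both ways, with 9 of 71 that rose and 11 that fell (median 0.02), as were proteasome subunits (6 and 5 of 30). These counts moved with single libraries: 4 ribosomal protein genes rose without KO replicate 6 and 5 without KO replicate 4, WT replicate 2 or WT replicate 6. Leaving out 1 zygote gave 1 (without WT replicate 2) to 5 proteasome genes that fell, with 2 without KO replicate 2, KO replicate 3, WT replicate 1 or WT replicate 6 and 3 without KO replicate 1, KO replicate 5, WT replicate 4 or WT replicate 7. Without WT replicate 1, 2 oxidative phosphorylation genes fell.

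In the spindle checkpoint, Aurora and anaphase-promoting complex list 8 of 39 rose and 5 fell (median -0.01), beside 8.19% and 6.38% over all genes. *Bub1b*, the checkpoint protein BUBR1, was at 1847 to 2343 in WT (median 2102) and at 694 to 1357 in KO (median 958, log2 -1.14, limma adjusted p = 2.81e-06). *Espl1*, which encodes separase, and *Aurkc* and *Aurkb*, Aurora kinases, also fell, while *Aurka*, *Birc5* (log2 0.68), which encodes survivin, and the kinetochore genes *Spc25* (0.81) and *Nuf2* rose. So did the checkpoint genes *Bub3* (log2 0.63), *Ttk* and *Mad2l1*, opposite to *Bub1b*. In the list of egg activation and cytostatic factor 5 of 27 rose and *Mos* alone fell (median 0.14). *Cdk1*, the kinase of maturation-promoting factor, was at 5.05 to 18.1 in WT (median 12.9) and at 32.2 to 67.8 in KO (median 50.2, log2 1.94 ± 0.23). *Mapk3*, which encodes ERK1 downstream of MOS, rose (log2 1.10), as did *Orai1*, a store-operated calcium channel, and *Wee2*, the oocyte kinase that inhibits CDK1.

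Of 28 regulators of stored RNA 4 rose and 3 fell (median 0.10), beside 8.19% and 6.38% over all genes. Only 2 rose without KO replicate 3, KO replicate 6, WT replicate 6 or WT replicate 7, and 2 rose and 1 fell without both replicates 6. *Eif4e*, the cap-binding initiation factor, was at 174 to 313 in WT (median 239) and at 339 to 714 in KO (median 428), and *Zar1*, which binds stored maternal RNAs, was at 959 to 1481 in WT (median 1189) and at 418 to 1084 in KO (median 760, log2 -0.77, limma adjusted p = 0.00275). *Zar1l* rose where its paralogue *Zar1* fell. Of 33 genes of deadenylation and decay 2 rose (*Cnot9* and *Cnot2*, of the CCR4-NOT complex) and 2 fell (*Upf1*, log2 -0.94, and *Tob2*, log2 -0.83), which is near the shares over all genes. The call of *Cnot2* was lost in 8 alternatives, among them leaving out KO replicate 3 or 6 or WT replicate 1, 2 or 6. Among secreted and fusion factors, *Gdf9*, an oocyte growth factor, was at 5344 to 6622 in WT (median 5898) and at 1609 to 4278 in KO (median 3567, log2 -1.05). *Astl*, the protease ovastacin that cleaves the zona pellucida, was at 272 to 425 in WT (median 319) and at 48.1 to 173 in KO (median 122). *Cd9*, the egg tetraspanin needed for fusion, and *Izumo1r*, the egg receptor for sperm, rose (log2 1.37 and 0.99).

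Of 24 genes of pronuclear chromatin assembly 1 rose and 6 fell (median -0.09), beside 8.19% and 6.38% over all genes. The oocyte linker histone *H1foo* was at 8119 to 9435 in WT (median 8833) and at 3136 to 6022 in KO (median 4592, log2 -0.98 ± 0.13, limma adjusted p = 9.29e-06). The H3.3 chaperone genes *Hira* (log2 -0.77), *Cabin1* (-0.58) and *Daxx* (-0.62) fell, and *Tet3*, the dioxygenase that oxidises methylcytosine in the paternal pronucleus, fell by 0.38 on the log2 scale, a call lost in 10 alternatives, among them leaving out KO replicate 2, 3 or 5 or WT replicate 1, 2, 6 or 7. This count rested on some libraries: 3 genes fell without WT replicate 2 or without WT replicate 6, and 0 rose and 3 fell without both replicates 6.

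In the list of TRIM28 and the H3K9 methylation machinery, 1 of 28 genes rose and 1 fell (median -0.07), both below the shares over all genes (8.19% and 6.38%). *Trim28*, the co-repressor of KRAB zinc-finger proteins, was at 151 to 327 in WT (median 199) and at 77.1 to 173 in KO (median 124, log2 -0.84, limma adjusted p = 0.004). *Suv39h1*, an H3K9 methyltransferase, was at 4.52 to 45.2 in WT (median 27.2) and at 56.9 to 79.4 in KO (median 71.7), and the groups were apart, whereas *Setdb1*, the methyltransferase that TRIM28 recruits, was at 280 to 360 in WT and at 245 to 323 in KO (log2 -0.11). Of 18 genes of DNA methylation 2 rose and 1 (*Tet3*) fell, near those shares. Both that rose are KRAB zinc-finger genes that protect imprints: *Zfp57* was at 1317 to 2082 in WT (median 1605) and at 2334 to 3576 in KO (median 3061, log2 0.79 ± 0.13, limma adjusted p = 0.000158), and *Zfp445* gave a log2 change of 0.77. For *Zfp57* the groups were apart. Of 20 imprinted genes tested 0 rose and 2 fell, where 6.38% of all genes fell. *Igf2r*, the receptor that clears IGF2, was at 25.4 to 69.6 in WT (median 38.9) and at 11.4 to 18.5 in KO (median 11.9, log2 -1.61), and it was also lower in KO GV oocytes (log2 -0.80, limma adjusted p = 0.027).

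Of the 18 genes that the study names beside bound RMER19B elements 15 were tested, and 1 rose and 1 fell (median 0.17), beside 8.19% and 6.38% over all genes. *Uck2*, a uridine-cytidine kinase, was at 22.6 to 35.5 in WT (median 28.6) and at 36.3 to 83.9 in KO (median 55.9), with no overlap (log2 0.91 ± 0.17, limma adjusted p = 0.000844). The study itself reports a mild increase of *Uck2* in zygotes, so this value repeats its result on the same libraries and adds no support. The other called gene was *Sdf2l1* of the ER list, which lost its call without WT replicate 6, and the remaining 13 had limma adjusted p of 0.0848 to 0.996. Genes of the minor wave of genome activation gave 0 calls of 8.

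The list of oviduct epithelium markers had 3 tested members, of which *Cdh1*, which encodes E-cadherin and is also expressed by mouse oocytes, fell (lowest, median and highest 185, 269 and 292 in WT and 96.5, 122 and 172 in KO, limma adjusted p = 0.000146). The summed level of the list was 190 to 386 in WT and 103 to 276 in KO, and without *Cdh1* it was 1.19 to 110 in WT and 3.90 to 104 in KO. Of the tested cumulus (5) and sperm (4) markers 0 were called, where 14.6% of all genes tested were, and lists this short cannot show a departure from that share. By chromosome the share of genes called ran from 9.14% on the X chromosome to 18.2% on chromosome 12, beside 14.6% over all genes. It was 14.98% on chromosome 13, where *Zfp708* lies. On the X chromosome 28 of 372 tested genes rose and 6 fell, with a median log2 change of 0.13. Over all genes tested 8.19% rose and 6.38% fell, with a median of 0.03, so the X chromosome had few falls and no excess of rises.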

How the data were processed

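Single zygotes, GV oocytes and 2-cell embryos were grouped by their labels. The authors amplified cDNA from single cells, made Nextera XT libraries, aligned reads with STAR 2.4.2a to mm9, counted them per Ensembl gene with HTSeq and divided the counts by DESeq2 size factors. The deposited signal values are these normalised read counts over all libraries. Strand use in counting is not clear for these libraries. Of 18504 gene rows, 108 repeats were dropped, and 26 symbols turned into dates were restored. Values were whole multiples of 1 step per library (100% within 0.01), so reads were recovered. 0 sample columns were left unused.

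log2(value + 1) was fitted in limma (3.58.1, R 4.3.3; trended, robust, two-sided, Benjamini-Hochberg, threshold 0.05) on the 14 zygotes, and fold changes are on this scale, which understates changes of low genes. Stage differences were interactions in limma with each neighbouring stage. edgeR 4.0.16 and DESeq2 1.42.0 were run on recovered reads. The limma fit alone was tested on simulated counts. Library measures were compared by exact permutation, two-sided. Named genes were up to 14 per direction with the smallest p at a log2 change of at least 1 and a mean of at least 10, without predicted, clone, pseudo and histone genes, up to 4 called members per list, the genes beside RMER19B elements, *Zfp* genes near *Zfp708*, and up to 6 per direction of each interaction. The other members were named after their values were seen. The members and lists were chosen with earlier results of these data known. Positions and 3′ UTR ends are from Ensembl 65 (NCBIM37), using Python 3.11.15, pandas 2.3.3 and numpy 2.4.6. Alternatives were other pseudocounts, filters, normalisations, tools, thresholds, a joint fit, sample weights, the replicate number as a block, thinning and leaving out each library. Length adjustment and leaving out both replicates 6 were added after seeing the data. Results for items withheld for evaluation are not reported here.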

Additional observations from a re-analysis of the deposited data

Results flagged for a closer look

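Of 74 groups of 7 zygotes looked at, 6 had a library far from the rest, where chance gives about 1 in 20, and 5 are given here. KO replicate 5 was highest for *Mos* (187) and *Tada2a* (70.2), and KO replicate 4 for *Erp44* (62.8). KO replicate 1 was highest for the summed oviduct markers (276) and the summed blood markers (427). For all 3 genes these values were still below every WT zygote.

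The KO effect differed between zygotes and GV oocytes, by the interaction in limma, by a log2 difference of 1.78 for *Arg2*, 1.22 for *Ldhb*, 1.69 for *Nubp2*, 1.63 for *Rab5if*, 1.22 for *U2af1l4* and 1.76 for *Zfpl1*. It differed by -2.09 for *Glce*, -2.48 for *Lbr*, -3.14 for *March7*, -4.17 for *Mos* and -1.81 for *Tada2a*.

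Against 2-cell embryos the difference was 1.78 for *Caml*, 1.52 for *Jpt1*, 2.38 for *Mfsd2a*, 1.83 for *Nubp2*, 1.81 for *Rab5if* and 1.57 for *Sla2*. It was -2.75 for *March7*, -3.52 for *Mos*, -1.84 for *Sf3b5*, -5.20 for *Gas6*, -6.06 for *Grb14* and -5.48 for *Tnc*. *Mfsd2a*, a lysophospholipid transporter, was at 37.3 to 59.6 in WT (median 42.3) and at 74.1 to 206 in KO zygotes (median 151), and *Sf3b5*, a splicing factor subunit, at 90.6 to 154 in WT (median 107) and at 25.5 to 48.7 in KO (median 39.3). For *Gas6* and *Grb14* the difference came with KO 2-cell embryos that varied widely, at 87.8 ± 183 and 228 ± 329 (mean ± SD of 8) against 1.32 ± 1.71 and 0.0458 in WT, and *Grb14* did not pass in zygotes (limma adjusted p = 0.723).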

How the results depend on the processing

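Against 1628 genes called between KO and WT zygotes, a single fit of the 3 stages called 482, a threshold of 0.01 called 792, and leaving out replicate 6 of both groups called 1085 (chosen after seeing the data). Leaving out a single zygote gave 1214 (without WT replicate 6) to 1902 calls (without WT replicate 5). Against 853 genes for the difference from GV oocytes, leaving out a single zygote gave 727 to 982. Against 196 for the difference from 2-cell embryos, a pseudocount of 5 gave 99, a minimum value of 10 gave 95, and leaving out a single zygote gave 122 (without KO replicate 7) to 181. The causes were not tested. Apart from the replicate block for the difference from 2-cell embryos, the other alternatives stayed within 1.5 times these counts. Among genes called between KO and WT zygotes in both the chosen setting and an alternative, 0 changed direction. Of 138 named genes 114 were called and 68 of those kept their call under every alternative, while 31 lost it only in the single fit of the 3 stages, among them *Zfp708*, *Zfp57*, *Trim28* and *Uck2*.

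WT and KO zygotes share replicate numbers, but the deviations of same-numbered zygotes correlated at only -0.182 to 0.0734, and 1 library correlated best with its own number, so the numbers do not pair them. With the replicate number as a block the counts were 1344 for KO against WT zygotes, 624 for the difference from GV oocytes and 308 for that from 2-cell embryos.

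Signs turned only for values that had not been called. *Lgi2* gave log2 changes of -0.025 with a pseudocount of 5, -0.026 with size factors within zygotes, -0.065 with quantile normalisation, -0.13 with edgeR and with edgeR without a filter, -0.14 with DESeq2 and -0.10 after thinning (leaving out 1 zygote, -0.22 to 0.13). With sample weights *Fam102a* gave -0.055 (-0.091 to 0.18), *Nufip2* -0.025 (-0.041 to 0.35) and *Zfp273* -0.018 (-0.10 to 0.35). Without both replicates 6, *Nufip2* gave -0.0094 and *Zfp273* -0.0024. *Tcf15* gave -0.0011 with edgeR without a filter (-0.017 to 0.32), and *Fmnl2* 0.020 after length adjustment (-0.23 to 0.18). The KO minus WT difference in summed sperm markers ranged from -1.99 to 3.90. Low genes and small changes are limited by a single library per embryo.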
